A study of Mus musculus with 6 samples.

Results

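The antibody constant-region genes and the J chain gene were followed in whole bone marrow of mice that lack nuclear myosin 1 and of wild-type mice. The set was fixed by name as Ighm, Ighd, Ighg1, Ighg2b, Ighg2c, Ighg3, Igha, Igkc, Iglc2 and Jchain. All 10 genes were found among the 46603 genes listed for each library, and all 10 passed the filter on low counts that left 15069 tested genes. The libraries came from 3 NM1 KO and 3 NM1 WT mice, all C57/Bl6 and 8 months old, with 1 mouse per library. Nuclear myosin 1 (NM1) is a nuclear form of the motor protein encoded by Myo1c. The comparison asks how the knockout changes the marrow transcriptome, and the study's title names platelet activation and the immune response. Marrow was spun out of cleaned long bones and no cell type was sorted, so fewer antibody-producing cells and less RNA per cell cannot be told apart.

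An antibody is built from paired heavy and light chains, and the heavy-chain constant region sets its class. B cells first join a variable region to the mu and delta constant regions (IgM and IgD). Class switch recombination later replaces mu with a gamma, epsilon or alpha region further along the locus and gives IgG, IgE or IgA. Long-lived plasma cells home to the bone marrow, where they secrete antibody for long periods. The J chain is a small protein made by antibody-secreting cells that links IgM and IgA units into polymers.

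The heavy-chain genes of the set lie on the minus strand of chromosome 12 (GRCm38), and are given here in their 5′ to 3′ order on that strand. Ighm, the mu gene, spans 113418558 to 113422730. Ighd follows at 113406604 to 113416324, Ighg3 at 113356224 to 113361232 and Ighg1 at 113325240 to 113330523. Ighg2b lies at 113302965 to 113307933, Ighg2c at 113285325 to 113288932 and Igha at 113254830 to 113260236. Igkc, the kappa light chain, is on chromosome 6 (70726435 to 70726966), Iglc2, a lambda light chain, on chromosome 16 (19198396 to 19200351), and Jchain on chromosome 5 (88519809 to 88527891).

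The hinge exons, which join the antigen-binding arms to the stem, show how far the 4 IgG genes differ, and the results below turn on telling these genes apart. They are given 5′ to 3′ as the coding strand of the GENCODE M21 transcripts, with capitals on the codons of cysteine, the residue through which antibody chains are bonded to each other.
Ighg1: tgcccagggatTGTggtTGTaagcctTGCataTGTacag
Ighg2b: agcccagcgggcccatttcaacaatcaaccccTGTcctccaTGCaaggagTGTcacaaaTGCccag
Ighg2c: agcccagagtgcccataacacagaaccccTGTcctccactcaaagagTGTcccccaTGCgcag
Ighg3: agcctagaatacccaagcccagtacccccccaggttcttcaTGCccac
The exons are 39, 66, 63 and 48 bases long and hold 4, 4, 3 and 1 cysteine codons. They lie at chr12:113329844-113329882, chr12:113307261-113307326, chr12:113288263-113288325 and chr12:113360529-113360576 on the minus strand.

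Over their secreted coding sequences Ighg2b and Ighg2c were 85.6% identical, and the other pairs of IgG genes were 73.9% to 75.5% identical. Of the 50-base stretches in the transcripts of Ighg2b, 4.15% also occurred in another gene of the set, and the figures were 5.49% for Ighg2c, 1.58% for Ighg3 and 0.393% for Ighg1. Igha, Ighm, Ighd, Igkc and Jchain shared none with another gene of the set. Iglc2 was 96.2% identical to Iglc3, a further lambda gene, and shared 7.65% of its stretches, so counts of these lambda genes are uncertain. No exon of the heavy-chain genes, Igkc or Jchain overlapped an exon of another annotated gene. Iglc2 shared 38 exon bases with the joining segment Iglj2, which was at 0 counts in every library.

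The J chain is bonded to the tail of secreted mu and alpha chains, through a cysteine just before the last residue. These tails are shown because Jchain is set against Ighm and Igha below, with capitals on that cysteine codon.
Ighm: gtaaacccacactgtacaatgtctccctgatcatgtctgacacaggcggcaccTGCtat
Igha: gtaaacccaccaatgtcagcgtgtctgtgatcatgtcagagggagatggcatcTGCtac
They lie at chr12:113420870-113420928 and chr12:113258771-113258829 on the minus strand. The 2 tails were 73.3% identical, against 45.4% over the whole secreted coding sequences. A count per gene adds the secreted and membrane forms together, so the files do not separate antibody that is secreted from receptor on B cells.

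Library totals were 21101616 to 22618802 counts in the NM1 KO mice and 15145052 to 17580660 counts in the NM1 WT mice, and all NM1 KO libraries were deeper than all NM1 WT libraries. The 10 genes held 0.44%, 0.95% and 1.12% of the counts in NM1 KO 1 to 3, against 0.923%, 0.605% and 0.766% in NM1 WT 1 to 3. Myo1c, the targeted gene, had 73.8, 59.1 and 59.7 CPM (counts scaled to the size of the library) in the NM1 KO mice, against 89.8, 115 and 102 CPM in the NM1 WT mice. Its values did not overlap, and its log2 fold change of -0.67 (SE 0.14) had an adjusted p of 0.0516 in edgeR's quasi-likelihood test. A count over all Myo1c isoforms does not check the loss of the nuclear form alone. Counts of Ddx3y, a Y-linked gene, were above 0 in NM1 KO 1, NM1 KO 2 and NM1 WT 2 and at 0 in NM1 KO 3, NM1 WT 1 and NM1 WT 3. Xist, an X-linked gene, ran the other way. It had 14, 6 and 20 counts in the first of these sets and 5731, 4141 and 4571 counts in the second. Sex was therefore mixed within both genotypes and not balanced between them. NM1 WT 2, the only NM1 WT library with Ddx3y counts, stood apart from its group. Its correlation across genes was 0.957 to both other NM1 WT libraries and 0.956 to 0.969 to the NM1 KO libraries.

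None of the 10 genes passed an adjusted p under 0.05 between the genotypes (edgeR's quasi-likelihood test, Benjamini-Hochberg over all tested genes), where 0.776% of all tested genes passed. With DESeq2 the number was also 0. In edgeR's test 2 of the 10, Ighg2b and Ighg1, had an unadjusted p under 0.05 (0.013 and 0.0175), as had 16.8% of all tested genes. The CPM values of the genotypes overlapped in each of the 10 genes, whereas 20.5% of all tested genes showed no overlap. Of the 10 log2 fold changes (NM1 KO over NM1 WT) 4 were positive, with a median of -0.04, and over all tested genes 50.2% were positive with a median of 0.002. Within IgG, Ighg1 took a smaller share of the counts, and Ighg2b a larger share, in all 3 NM1 KO mice than in any NM1 WT mouse. The exact two-sided permutation p was 0.1 for each share, the smallest possible with 3 mice against 3. The adjusted p was 0.333, so neither share passed. The CPM levels are drawn by library in the plot of the 10 genes.

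**Figure D1:**
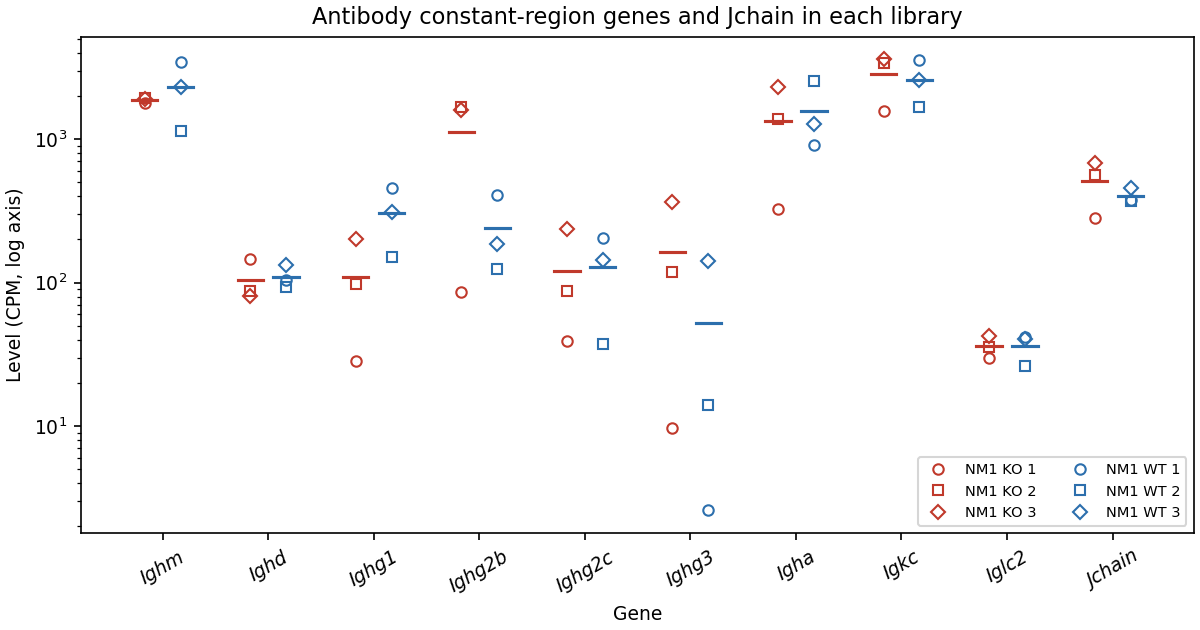
Levels of the 10 genes in CPM (log axis) in each of the 6 libraries, NM1 KO left and NM1 WT right for each gene, with a bar at the mean of 3 mice. The genotypes overlap in every gene, and Ighg3 spans the widest range, with its highest value in NM1 KO 3 (366 CPM) and its lowest in NM1 WT 1 (2.58 CPM).

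Ighm, the mu heavy chain of IgM, had 1790, 1956 and 1923 CPM in NM1 KO 1 to 3, against 3474, 1142 and 2325 CPM in NM1 WT 1 to 3. The NM1 KO mice lay close together, inside the NM1 WT range. The log2 fold change was -0.29 (SE 0.29, adjusted p = 0.66 in edgeR's quasi-likelihood test). Ighd, the delta chain that naive B cells carry beside IgM, had 146, 86.9 and 80.6 CPM in the NM1 KO mice against 104, 92.7 and 133 CPM in the NM1 WT mice. Its highest and its lowest value were both in NM1 KO mice, and its log2 fold change was -0.07 (SE 0.22, adjusted p = 0.915).

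Ighg2b, the gamma-2b chain, had 85.6, 1693 and 1602 CPM in the NM1 KO mice, against 410, 124 and 186 CPM in the NM1 WT mice. NM1 KO 2 and NM1 KO 3 lay far above every NM1 WT mouse, while NM1 KO 1 lay below all of them. The mean was 1127 ± 903 CPM in the NM1 KO mice and 240 ± 150 CPM in the NM1 WT mice (SD, n = 3 each), and the log2 fold change was 2.23 (SE 0.76, adjusted p = 0.175, edgeR). Without NM1 KO 1 it was 2.78 and passed (adjusted p = 0.0163, edgeR), the only one of the 6 fits with 1 library left out in which any of the 10 genes was called. Over all alternatives its adjusted p ranged from 1.63e-46, in the fit with no low-count filter, to 0.51.

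Ighg1, the gamma-1 chain, had 28.5, 97.9 and 202 CPM in the NM1 KO mice and 461, 151 and 313 CPM in the NM1 WT mice. NM1 KO 1 and NM1 KO 2 were below all NM1 WT mice, and NM1 KO 3 was above NM1 WT 2. The log2 fold change was -1.49 (SE 0.54, adjusted p = 0.196, edgeR), with an adjusted p of 1.22e-20, in the fit with no low-count filter, to 0.572 over the alternatives. Ighg2c, the gamma chain that C57BL/6 mice carry in place of gamma-2a, had 39.2, 87.4 and 237 CPM in the NM1 KO mice against 204, 37.4 and 144 CPM in the NM1 WT mice. The genotypes were interleaved, and the log2 fold change was -0.08 (SE 0.59, adjusted p = 0.963).

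Ighg3, the gamma-3 chain, known for responses to carbohydrate antigens, had 9.75, 118 and 366 CPM in the NM1 KO mice and 2.58, 14 and 141 CPM in the NM1 WT mice. The 6 libraries differed up to 142-fold, and both genotypes held low and high mice. Its log2 fold change of 1.65 carried an SE of 1.16 (adjusted p = 0.511, edgeR). Without NM1 KO 3 the log2 fold change was 0.29, and without NM1 WT 3 it was 4.29, the lowest and the highest of the fits with a library left out.

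Igha, the alpha chain of IgA, had 328, 1376 and 2307 CPM in the NM1 KO mice, against 912, 2533 and 1279 CPM in the NM1 WT mice. NM1 KO 1 was the lowest and NM1 WT 2 the highest of the 6. The log2 fold change was -0.24 (SE 0.53, adjusted p = 0.871). It was 0.29 without NM1 WT 2 and 0.22 without NM1 KO 1.

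Igkc, the kappa constant region carried by most mouse antibodies, had 1587, 3378 and 3613 CPM in the NM1 KO mice, against 3553, 1673 and 2588 CPM in the NM1 WT mice. NM1 KO 1 and NM1 WT 2 were the lowest of the 6 libraries. The log2 fold change was 0.13 (SE 0.30, adjusted p = 0.871). Iglc2 had 29.8, 35.6 and 42.6 CPM in the NM1 KO mice and 42.1, 26.3 and 40.4 CPM in the NM1 WT mice. Its log2 fold change of -0.01 (SE 0.20, adjusted p = 0.989) was the smallest of the set. The other lambda genes tested, Iglc1 and Iglc3, did not pass either, at log2 fold changes of -0.38 (SE 0.28) for Iglc1 and -0.13 (SE 0.23) for Iglc3. Iglc4 had at most 10 counts in a library and was not tested.

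Jchain had 282, 564 and 687 CPM in the NM1 KO mice and 376, 371 and 459 CPM in the NM1 WT mice. NM1 KO 1 was the lowest and the other NM1 KO mice the highest of the 6. The log2 fold change was 0.35 (SE 0.25, adjusted p = 0.529, edgeR), and it was 0.08 without NM1 KO 3 and 0.64 without NM1 KO 1. Jchain, Ighg1, Ighg2b and Ighg3 kept their direction in every alternative, while the other genes each changed sign in at least 2 of the 18.

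**Figure D2:**
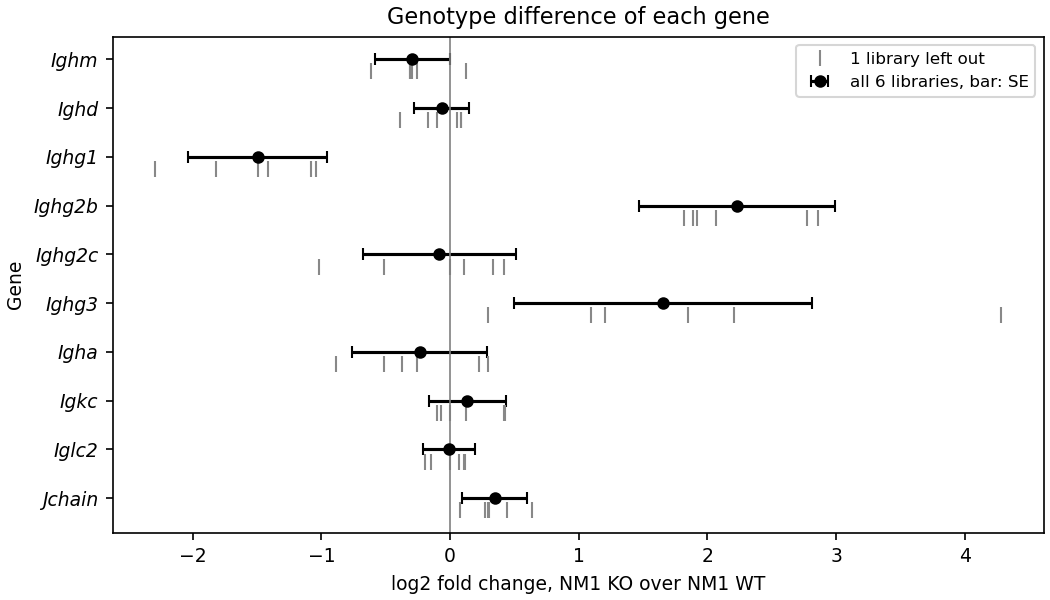
Log2 fold change (NM1 KO over NM1 WT) of each gene from all 6 libraries (black point, bar: SE) and with 1 library left out (grey ticks). Ighg2b stays above 0 (lowest 1.82) and Ighg1 below 0 (highest -1.04) in the fits with a library left out, and Ighg3 ranges from 0.29 to 4.29.

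Compared per kb of exon, Igkc had the highest level in both genotypes, with a mean of 5375 CPM per kb in the NM1 KO mice and 4897 CPM per kb in the NM1 WT mice. Ighm followed at 1002 CPM per kb in the NM1 KO mice and 1227 CPM per kb in the NM1 WT mice, and Igha at 501 CPM per kb in the NM1 KO mice and 590 CPM per kb in the NM1 WT mice. Ighg2b was at 421 CPM per kb in the NM1 KO mice and 89.6 CPM per kb in the NM1 WT mice. Ighd and Iglc2 were low in both genotypes, at 55.1 and 58.9 CPM per kb in the NM1 KO mice and 57.7 and 59.3 CPM per kb in the NM1 WT mice. Ighg1 was lower than both in the NM1 KO mice (42.3 CPM per kb) but not in the NM1 WT mice (119 CPM per kb). Ighg3 was lower than both in the NM1 WT mice (20.9 CPM per kb) but not in the NM1 KO mice (65.6 CPM per kb). The order of Ighm and Igha turned in single mice: in NM1 WT 2 Igha had 949 and Ighm 606 CPM per kb.

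The spread between mice of 1 genotype was wide for the switched isotypes. On the log2 scale the SD within genotype was 2.71 for Ighg3, 1.85 for Ighg2b, 1.29 for Ighg2c, 1.16 for Ighg1 and 1.16 for Igha, against a median of 0.25 over all tested genes. These values lay above those of 99.4% to 99.9% of the tested genes. Ighm, Igkc and Jchain, at 0.58, 0.61 and 0.49, lay above 88.2%, 89.9% and 82.3%. Tested genes with a mean of at least 10 CPM had a lower median SD, 0.186. Among those, Ighm, Igkc, Jchain and Ighd lay above 98.4%, 98.6%, 97.1% and 92.2%, and Iglc2 above 86.8%. Wide spread for the level was thus not particular to the switched isotypes. Iglc2 and Ighd had the smallest spread of the set, at 0.32 and 0.38.

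The isotype shares set each heavy-chain gene against the sum of the 7 heavy-chain genes in the same library, so they do not depend on library scaling. The heavy-chain sum was 55775, 117572 and 143245 counts in NM1 KO 1 to 3, against 82023, 70648 and 68937 counts in NM1 WT 1 to 3. Ighm took 73.8%, 36.1% and 28.6% of it in the NM1 KO mice, against 62.4%, 27.9% and 51.4% in the NM1 WT mice. Each genotype thus held mice with a large and mice with a small IgM share. The mean was 46.2 ± 24.2% in the NM1 KO mice and 47.2 ± 17.6% in the NM1 WT mice (SD, n = 3 each, exact two-sided permutation p = 1.0).

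Ighd took 6.03%, 1.60% and 1.20% in the NM1 KO mice and 1.86%, 2.26% and 2.93% in the NM1 WT mice (exact permutation p = 1.0). The share in NM1 KO 1 was the highest of the 6, and the other NM1 KO mice were below all NM1 WT mice. Igha took 13.5%, 25.4% and 34.3% in the NM1 KO mice and 16.4%, 61.9% and 28.3% in the NM1 WT mice (exact permutation p = 0.6). Taken gene by gene, Igha had the most counts in NM1 KO 3 and NM1 WT 2, and Ighm in the other 4 mice. Per kb of exon Ighm took 34.8% and Igha 29.5% in NM1 KO 3, so the order in that mouse depends on exon length. The 4 IgG genes together took 6.72%, 36.9% and 35.8% in the NM1 KO mice and 19.4%, 7.97% and 17.3% in the NM1 WT mice. The mean IgG share was 26.5 ± 17.1% in the NM1 KO mice and 14.9 ± 6.08% in the NM1 WT mice, but NM1 KO 1 was below every NM1 WT mouse (exact permutation p = 0.4). As 1 class, IgG exceeded both Ighm and Igha in NM1 KO 2 and NM1 KO 3 and in none of the NM1 WT mice, but per kb of exon Ighm was above IgG in all 6 mice. The difference in IgG share was 11.6 points. It was 21.5 points without NM1 KO 1, 6.38 points without NM1 KO 2 and 6.90 points without NM1 KO 3. With 3 mice against 3 the smallest two-sided p that this test can give is 0.1. The switched classes together, IgG and IgA, made up 20.2%, 62.3% and 70.2% of heavy-chain counts in the NM1 KO mice and 35.7%, 69.8% and 45.6% in the NM1 WT mice.

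**Figure D3:**
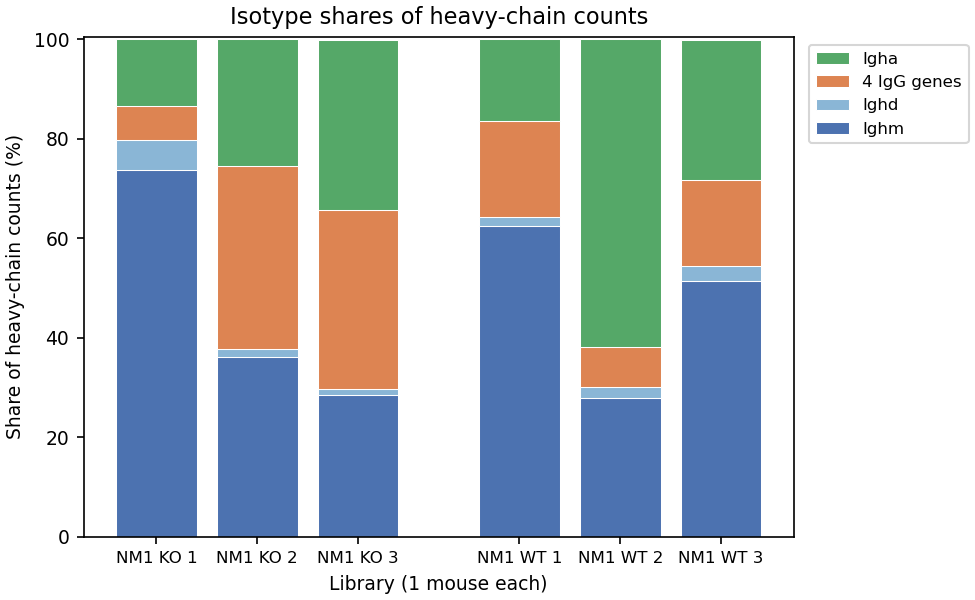
Share of heavy-chain counts (%) taken by Ighm, Ighd, the 4 IgG genes and Igha in each library, NM1 KO left and NM1 WT right. The IgG block is large in NM1 KO 2 and NM1 KO 3 (36.9% and 35.8%) and small in NM1 KO 1 (6.72%).

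Within IgG the genotypes did not overlap for 2 of the 4 subclasses, and shares of a common sum trade off, so these are not independent results. Over all tested genes the CPM values of 20.5% did not overlap, a measure of levels rather than shares. Ighg1 took 17.5%, 4.90% and 8.41% of the IgG counts in the NM1 KO mice, against 42.8%, 46.4% and 40.0% in the NM1 WT mice. The highest NM1 KO mouse, NM1 KO 1, had a 95% Wilson interval of 15.8% to 19.2%, and the lowest NM1 WT mouse, NM1 WT 3, one of 38.7% to 41.2%. Such intervals cover counting error within a library only, not the spread between mice. The mean Ighg1 share was 10.3 ± 6.48% in the NM1 KO mice and 43.0 ± 3.21% in the NM1 WT mice (SD, n = 3 each), a difference of -32.8 percentage points. The exact two-sided permutation p was 0.1, the smallest possible, and the adjusted p over the 10 shares and ratios tested was 0.333.

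Ighg2b took 52.5%, 84.8% and 66.5% of the IgG counts in the NM1 KO mice, against 38.0%, 37.9% and 23.8% in the NM1 WT mice. It led the subclasses in all 3 NM1 KO mice, including NM1 KO 1, whose Ighg2b level was the lowest of the 6, and Ighg1 led in all 3 NM1 WT mice. The interval of NM1 KO 1 was 50.3% to 54.8%, and that of NM1 WT 1, the highest NM1 WT mouse, 37.0% to 39.1%. The mean was 68.0 ± 16.2% in the NM1 KO mice and 33.2 ± 8.20% in the NM1 WT mice, a difference of 34.7 points (exact permutation p = 0.1, adjusted p = 0.333). With any 1 library left out the difference was 26.3 to 42.4 points for Ighg2b and -36.4 to -30.1 points for Ighg1. Counted per kb of exon, the Ighg1 shares were 4.83% to 14.4% in the NM1 KO mice and 34.1% to 42.2% in the NM1 WT mice, and the Ighg2b shares 41.9% to 80.7% in the NM1 KO mice and 19.6% to 33.4% in the NM1 WT mice.

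The ratio of Ighg2b to Ighg1 counts, chosen after these shares were seen and given with no test, was 3.01, 17.3 and 7.91 in the NM1 KO mice and 0.888, 0.817 and 0.594 in the NM1 WT mice. All NM1 KO mice thus had more Ighg2b than Ighg1 counts, and all NM1 WT mice the reverse. Within libraries with Ddx3y counts the Ighg1 level averaged 63.2 CPM in 2 NM1 KO mice against 151 CPM in 1 NM1 WT mouse, and Ighg2b 889 against 124 CPM. Among libraries without Ddx3y counts Ighg1 was at 202 CPM in 1 NM1 KO mouse against a mean of 387 CPM in 2 NM1 WT mice, and Ighg2b at 1602 against 298 CPM. The means of both genes differed in the same direction in both sets of libraries, each with too few mice for a test, but NM1 KO 1 had less Ighg2b than NM1 WT 2. The means of Ighg2c, Ighg3, Igkc, Iglc2 and Jchain were also higher in the NM1 KO mice in both sets. Keeping a direction was thus not particular to Ighg1 and Ighg2b. Igha, Ighm and Ighd turned between the sets. Igha averaged 852 CPM in the NM1 KO mice against 2533 CPM in NM1 WT 2 with Ddx3y counts, and 2307 CPM in NM1 KO 3 against 1096 CPM in the NM1 WT mice without. Ighm averaged 1873 CPM in the NM1 KO mice against 1142 CPM in NM1 WT 2 with Ddx3y counts, and 1923 CPM in NM1 KO 3 against 2900 CPM in the NM1 WT mice without, and Ighd turned in the same way as Ighm.

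Ighg2c took 24.0%, 4.38% and 9.83% of the IgG counts in the NM1 KO mice and 18.9%, 11.5% and 18.4% in the NM1 WT mice (exact permutation p = 0.6). Ighg3 took 5.98%, 5.93% and 15.2% in the NM1 KO mice and 0.239%, 4.30% and 17.9% in the NM1 WT mice (exact permutation p = 0.8). Both subclasses overlapped between the genotypes. Ighg3 was almost missing from NM1 WT 1, at 38 counts of 15875 IgG counts.

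**Figure D4:**
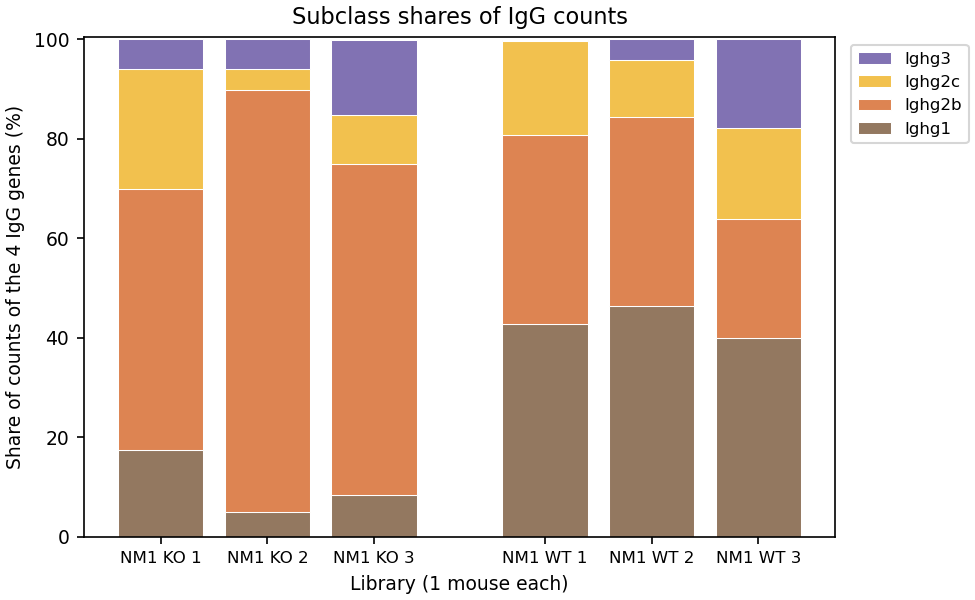
Share of the counts of the 4 IgG genes (%) taken by each subclass in each library, NM1 KO left and NM1 WT right. Ighg1 takes 4.90% to 17.5% in the NM1 KO mice and 40.0% to 46.4% in the NM1 WT mice, and Ighg2b is the largest block in each NM1 KO mouse.

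Ighe, the heavy chain of IgE, was close to absent, with 0, 4 and 2 counts in the NM1 KO mice and 0, 0 and 30 counts in the NM1 WT mice, and was not tested. A count of 0 allows up to 3 read pairs. Kappa dominated the light chains in every mouse. Iglc2 made up 1.85%, 1.04% and 1.16% of Igkc plus Iglc2 counts in the NM1 KO mice and 1.17%, 1.54% and 1.54% in the NM1 WT mice (exact permutation p = 0.8). With Iglc1 and Iglc3 added, lambda made up 4.92%, 2.87% and 3.40% of light-chain counts in the NM1 KO mice and 3.08%, 7.51% and 3.99% in the NM1 WT mice.

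Jchain counts per 100 heavy-chain counts were 11.6, 10.4 and 10.2 in the NM1 KO mice and 6.75, 9.06 and 10.1 in the NM1 WT mice. The genotypes did not overlap, but NM1 KO 3 and NM1 WT 3 differed by little. Over all tested genes the CPM values of 20.5% did not overlap, a measure of levels rather than ratios. The mean was 10.8 ± 0.763 in the NM1 KO mice and 8.65 ± 1.73 in the NM1 WT mice, a difference of 2.11 (exact permutation p = 0.1, adjusted p = 0.333), and it was 1.16 to 2.85 with any 1 library left out. Set against Ighm and Igha alone, the classes whose tails bind the J chain, Jchain stood at 13.3, 16.9 and 16.2 per 100 counts in the NM1 KO mice and 8.57, 10.1 and 12.7 in the NM1 WT mice. This ratio was chosen after the first was seen and carries no test.

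The calls in lists of genes around antibody production are to be read against the 0.776% called over all tested genes. Of 25 plasma cell genes 0 passed (median log2 fold change 0.04). Sdc1, the plasma cell surface marker CD138, had 20.9, 26.0 and 25.6 CPM in the NM1 KO mice and 23.8, 11.1 and 19.4 CPM in the NM1 WT mice. Mzb1, a chaperone of IgM assembly, had 28.9, 34.9 and 55.1 CPM in the NM1 KO mice and 39.0, 27.6 and 49.0 CPM in the NM1 WT mice. The log2 fold changes were 0.419 for Sdc1 and 0.041 for Mzb1, and 16 of the 25 genes were positive. Tnfrsf17, Fkbp11, Derl3 and Prdm1 went the other way, at -0.855, -0.463, -0.244 and -0.235. The smallest p of this list were those of Ly6c2, also made by monocytes, and Cd38, with log2 fold changes of -0.53 and 0.54 (adjusted p = 0.114 and 0.134). The summed CPM of the list was 2756 to 3040 in the NM1 KO mice and 2661 to 2948 in the NM1 WT mice. Much of that sum came from Tent5c and Ly6c2. Tent5c averaged 1050 CPM in the NM1 KO mice and 880 CPM in the NM1 WT mice. Ly6c2 averaged 438 CPM in the NM1 KO mice and 634 CPM in the NM1 WT mice. The sum therefore does not measure plasma cell content. No defining marker was at 0 in all libraries.

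Of 28 genes of the secretory pathway and unfolded protein response 0 passed, with Dnajb9, an endoplasmic reticulum chaperone, at 0.51 (adjusted p = 0.295) and Sdf2l1 at -0.52 (adjusted p = 0.397). Of 22 mature B cell genes 0 passed, with Spib, a B cell transcription factor, at 0.46 (adjusted p = 0.161) and the tetraspanin gene Cd37 at -0.52 (adjusted p = 0.185). Of 24 early B cell genes 0 passed, 19 had a positive log2 fold change, and the median was 0.29. Rag1, a subunit of the recombinase that joins the variable segments, had 43.3, 42.6 and 45.3 CPM in the NM1 KO mice and 17.4, 31.5 and 13.2 CPM in the NM1 WT mice (log2 fold change 1.07, SE 0.26, adjusted p = 0.083). Tcf3, a transcription factor of early B cells, had 0.44 (adjusted p = 0.113).

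Of 26 tested genes of class switch recombination 0 passed, with a median log2 fold change of 0.13. Rnf8, a ubiquitin ligase at DNA breaks, had a log2 fold change of -0.40 (adjusted p = 0.273) and Apex2, an endonuclease, 0.39 (adjusted p = 0.284). Of 20 genes of B cell receptor signalling 0 passed, with the adaptor gene Dok3 at -0.55 (adjusted p = 0.139) and the phosphatase gene Ptpn6 at -0.42 (adjusted p = 0.175).

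Of 13 tested receptors for antibody constant regions 0 passed, and 1 had a positive log2 fold change. The median was -0.28. Fcer1a and Ms4a2, subunits of the high-affinity IgE receptor, had -0.89 and -0.61 (adjusted p = 0.107 and 0.146). Pigr, the carrier of polymeric IgA and IgM across epithelia, had at most 0.0921 CPM in the NM1 KO mice and 0.464 CPM in the NM1 WT mice and was not tested. In the list of 18 tested genes of the plasma cell niche 2 rose and 1 fell. Cxcl12, the chemokine that retains plasma cells in marrow, rose to 972, 1400 and 747 CPM in the NM1 KO mice, against 319, 430 and 432 CPM in the NM1 WT mice (adjusted p = 0.0185). Vcam1, an adhesion molecule of stroma, also rose (log2 fold change 1.39, adjusted p = 0.0396), and Lgals1, galectin 1, fell to 202 ± 11.3 CPM in the NM1 KO mice, against 361 ± 39.7 CPM in the NM1 WT mice (adjusted p = 0.019).

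Markers of other marrow cells were read in the same libraries. Of 10 stromal markers 5 rose, with summed CPM of 614 to 870 in the NM1 KO mice and 235 to 363 in the NM1 WT mice, and Col1a2, a type I collagen chain, led with a log2 fold change of 2.08 (adjusted p = 7.7e-04, edgeR). The others were Kitl, Lepr, Bgn and Dcn, at 1.03 to 1.45. Of 8 tested skeletal muscle markers 4 rose, with sums of 63.6 to 85.4 CPM in the NM1 KO mice and 15.9 to 27.1 CPM in the NM1 WT mice. They were Tnnt3, Tnni2, Pvalb and Acta1, of the contractile apparatus and its calcium binding. Of 10 neutrophil markers 0 passed and 0 had a positive log2 fold change, with Lcn2 at -0.72 (adjusted p = 0.0879) and Prtn3 at -0.57 (adjusted p = 0.151) and sums of 38127 to 49177 CPM in the NM1 KO mice and 49380 to 67095 CPM in the NM1 WT mice. Of 10 T and NK cell markers Cd4 rose (log2 fold change 1.19, adjusted p = 0.0302), and Trac stood at 0.60 (adjusted p = 0.302). The median of these 10 was 0.02, 5 were positive, and Ncr1 was lowest at -0.40. Of 9 erythroid markers 0 passed, with Epb42 at 0.52 (adjusted p = 0.171). The part of these cells in the CPM levels of the antibody genes was not tested.

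Pairs of the 10 genes were compared by the root mean square difference of their log2 CPM over the 6 libraries, each centred on its mean. Igkc and Iglc2 had the smallest difference, at 0.29, followed by Ighm and Iglc2 at 0.30 and Igkc and Jchain at 0.33. The difference is not scaled by spread, so genes that vary little lie near each other by it. Iglc2 varied least of the set, with a 1.62-fold range over the 6 libraries, so its pairs do not by themselves show a shared pattern. Outside the immunoglobulin genes, the nearest to Igkc were Prr5l (0.06), Xrcc4 (0.09) and Sec14l5 (0.16), where a gene with no change between libraries would lie at 0.50. Among the nearest to Ighm were Col4a2 (0.11) and Pcbp3 (0.13), and nearest to Jchain were Gm11837, Reep6 and Smim6 (0.12 to 0.15). The genes closest to Igha, Cbln3, Lrfn1 and Wnt10a, were at 0.40 to 0.42. A gene with no change would lie at 0.98 from Igha, 0.48 from Ighm and 0.42 from Jchain. Cbln3, Lrfn1 and Wnt10a had at most 2.09 CPM in any library, and Sec14l5 and Gm11837 were as low, at up to 1.9 and 1.41 CPM. All these neighbours of Igkc, Ighm, Jchain and Igha were picked as the nearest of all tested genes over only 6 libraries, so their likeness carries no test.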

How the data were processed

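RNA of whole marrow was sequenced from 3 NM1 KO and 3 NM1 WT mice, each its own library. The deposited files hold raw counts per Ensembl gene. Trimmomatic 0.36, HISAT2 2.0.4, SAMtools 0.1.19, FastQC and HTSeq are named with builds GRCm38 and mm10 per the submitters' processing notes. How reads were counted, and with which strand setting, was not given in the sources used here. Low counts were nearly all even (2417 genes at 2 and 6 at 1 in NM1 KO 1), so both mates of a pair appear to have been counted, and intervals were computed on halved counts.

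GENCODE M21 (GRCm38) gave names for 46091 of 46603 IDs, and unmatched genes held at most 0.0532% of a library. Genes were filtered with filterByExpr, scaled with TMM and tested with edgeR 4.0.16 (R 4.3.3) by its quasi-likelihood test with genotype as the only term. CPM values use the TMM factors, and 1 CPM stands for 14.7 to 23.0 counts. Shares were compared by exact two-sided permutation tests over mice, adjusted over 10 values. The widest 95% Wilson interval of a share was 4.52 points, and such intervals cover counting error only. Within-genotype SD used log2(CPM + 0.5).

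The members and lists were chosen with earlier results of these data known. Named genes are the 10 members, the other constant-region genes, the nearest 3 genes to 4 members, and from each list those past the threshold and the 2 of smallest p. Sdc1, Mzb1, Pigr, Ncr1, Tent5c, Tnfrsf17, Fkbp11, Derl3 and Prdm1 were added after their values were seen. Some genes that this rule names are not reported here. Alternatives were 3 scalings (RLE, upper quartile, total count), 2 filters, DESeq2 1.42.0, limma-voom (limma 3.58.1), a replicate block, each library left out, halved counts, library sizes without immunoglobulin genes, a Ddx3y term and a looser threshold. The fit was tested on simulated data.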

Additional observations from a re-analysis of the deposited data

How the results depend on the processing

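None of the 10 genes passed in 15 of the 18 alternatives, which include DESeq2, limma-voom, 3 other scalings and the Ddx3y term. With no low-count filter 3 passed (Ighg1, Ighg2b and Ighg3), in a fit that called 1138 of 24358 genes and whose prior degrees of freedom were infinite, against 7.73 in the reported fit. With 1 library left out the number was 0 to 1. The replicate block gave 1, Ighg3 (log2 fold change 2.12, adjusted p = 0.0054, edgeR). The replicate numbers are not known to pair the mice: deviations of same-numbered libraries correlated at 0.064, 0.115 and 0.061, although each library correlated best with its own number. Over all genes the number of calls was 117 as reported and 26 to 344 with a library left out, 37 with limma-voom, 60 with the Ddx3y term, 357 at the looser threshold, 421 with the block and 786 with DESeq2.

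The sign turned with the Ddx3y term for Ighm (0.06), Ighg2c (0.60) and Iglc2 (0.18), and for Iglc2 also with total counts (0.03), no filter (0.008), limma-voom (0.015) and the block (0.006). With a library left out log2 fold changes ranged from -0.61 to 0.13 for Ighm, -0.39 to 0.089 for Ighd, -1.02 to 0.42 for Ighg2c, -0.89 to 0.29 for Igha, -0.10 to 0.43 for Igkc and -0.19 to 0.11 for Iglc2. Share differences then ranged from -14.9 to 7.70 points for Ighm, -0.95 to 1.47 for Ighd, 6.38 to 21.5 for IgG, -20.7 to 2.07 for Igha, -9.13 to 0.691 for Ighg2c, -2.07 to 6.77 for Ighg3 and -0.314 to 0.0878 for Iglc2. Pooled counts gave -0.12 points for Ighd. The Ighg1, Ighg2b, IgG and Jchain differences kept their sign under every alternative run. The cause of each change was not tested.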

Other observations

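Variable segments of the same transcripts were also counted. The leading heavy-chain V gene took 14.9%, 17.1% and 23.9% of V counts on chromosome 12 in NM1 KO 1 to 3 and 25.0%, 13.6% and 24.8% in NM1 WT 1 to 3, and was a different gene in each mouse except Ighv1-69, which led in NM1 KO 2 and NM1 WT 1. Among kappa V genes the leader took 18.3%, 33.9% and 19.5% in NM1 KO and 41.9%, 17.1% and 37.3% in NM1 WT. Heavy-chain constant counts stood at 1.53 to 1.86 times the Igkc counts in NM1 KO and at 1.57 to 2.45 times in NM1 WT. The highest value was in NM1 WT 2, the mouse with the largest Igha share. These are raw counts, and Igkc has 532 exon bases against 1326 to 2678 in the heavy-chain genes. Per kb of exon Igkc was above each heavy-chain gene in every mouse.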
